A study of Mus musculus with 6 samples.

Results

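The genes examined here encode 42 carriers, channels and pumps that move nutrients and ions across the small intestinal epithelium. They were chosen by name, and their members in the data are the ATAC-seq peaks to which the deposited table gives exactly 1 of those 42 gene names. There were 197 such peaks of 39 genes among 123510 peaks in all, of which 61914 carried any gene name. ATAC-seq uses a transposase that cuts and tags open DNA, so that the reads over a peak report chromatin accessibility and not transcription. Nuclei came from whole small intestinal crypts, isolated after villi had been strained off, of male C57BL/6 mice. The WT group (3 libraries, labelled wild type) was compared with the Smarcad1-KO group (3 libraries, labelled Vil-Cre mediated KO of Smarcad1) to ask whether loss of this chromatin remodeler alters accessibility. In the KO mice, Cre driven by the Villin promoter removes floxed Smarcad1 exons 12 to 14 in intestinal epithelial cells, and the floxed line came from 1 targeted ES cell clone. The alleles that WT mice carried and the age of the mice are not given in the sources used here.

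Absorption depends on polarised cells that take up solutes through apical carriers, many of them coupled to sodium or protons, and release them through basolateral carriers. Sugars enter with sodium through Slc5a1, peptides with protons through Slc15a1, and iron through Slc11a2, and secretion of chloride runs in the opposite direction through Slc12a2 and Cftr. In the small intestine chloride secretion is known as a task of crypt cells, whereas most nutrient carriers are known for their use in enterocytes of the villus. Accessible DNA at a gene is found at its start and at enhancers, which often lie in introns.

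The values are the deposited log2 read counts per peak, scaled to the largest library. To compare peaks of unequal width, the log2 of the peak width in kb was subtracted, which gives log2 normalized reads per kb of peak and is called strength below. Library depth ranged from 4339306 reads in peaks (KO3) to 16301164 (WT3), and the transporter peaks held between 5 and 1312 reads per library. Smarcad1 itself had 4 peaks, none of them over the deleted exons, so that accessibility could not check the deletion. Its start peak had a log2 normalized value of 8.15 ± 0.73 (SD, n = 3) in WT and 8.10 ± 0.67 (SD, n = 3) in KO. Of 16 crypt epithelium markers 11 had peaks, among them Lgr5, Olfm4, Axin2 and Mki67, and no peak carried the names Ascl2, Epcam, Mmp7, Muc2 or Vil1. Peaks also carried 5 of 8 villus enterocyte marker names and 7 of 11 immune and stromal names, with Cd3e, Cd79a and Des among those without a peak. Whole crypts hold several cell types, and fewer cells of a type cannot be told apart from less open chromatin per cell.

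The following stretches of 200 bases show 1 example for each class and the start of a zinc exporter. The examples come from the strongest peak of the class at a gene start or in an intron. Stronger peaks over coding exons at Slc3a1, Slc15a1 and Abcg5 were left out. Each example lies as near to the centre of its peak as a run without untranslated bases allowed. All stretches are read 5′ to 3′ along the gene's strand from the GRCm38 RefSeq assembly. Capitals mark motifs that were searched on both strands, namely the HNF4 motif (CAAAGTCCA) of nuclear receptors and the GC box (GGGGCGGGG). The motif of CDX factors was searched as CCATAAA. For the GATA factors the letters searched were AGATAAG. For AP-1 they were TGANTCA. The metal response motif was searched as TGCACNC. It was also searched in a second form, TGCGCNC. None of these motifs contains another.
Slc2a2, sugar class, upstream of the start, chr3:28695876-28696075, strand +: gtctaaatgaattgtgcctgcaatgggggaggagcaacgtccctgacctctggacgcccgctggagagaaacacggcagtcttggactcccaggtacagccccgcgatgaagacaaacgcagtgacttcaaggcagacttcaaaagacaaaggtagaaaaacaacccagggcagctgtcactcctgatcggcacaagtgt
Slc3a2, peptide and amino acid class, just inside the start, chr19:8722896-8723095, strand -: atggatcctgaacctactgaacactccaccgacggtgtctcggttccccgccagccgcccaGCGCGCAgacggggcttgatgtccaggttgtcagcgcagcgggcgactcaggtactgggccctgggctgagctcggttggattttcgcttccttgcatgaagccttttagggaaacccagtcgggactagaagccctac
Slc39a4, metal class, upstream of the start, chr15:76617385-76617584, strand -: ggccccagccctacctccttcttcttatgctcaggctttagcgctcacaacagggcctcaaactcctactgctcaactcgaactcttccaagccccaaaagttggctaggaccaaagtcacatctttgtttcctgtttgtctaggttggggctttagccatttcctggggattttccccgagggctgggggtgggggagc
Cftr, ion class, intron 11, chr6:18248151-18248350, strand +: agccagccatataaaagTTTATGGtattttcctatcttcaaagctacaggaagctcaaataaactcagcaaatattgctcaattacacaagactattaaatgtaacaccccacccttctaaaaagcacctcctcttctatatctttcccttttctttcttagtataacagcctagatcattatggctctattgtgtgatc
Abcg5, lipid and sterol class, upstream of the start, chr17:84683232-84683431, strand -: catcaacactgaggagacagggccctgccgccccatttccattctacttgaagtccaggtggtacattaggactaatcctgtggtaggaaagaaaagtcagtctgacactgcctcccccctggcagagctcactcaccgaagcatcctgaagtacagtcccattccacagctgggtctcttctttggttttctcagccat
Abcb1a, vitamin, monocarboxylate and drug class, intron 3, chr5:8667876-8668075, strand +: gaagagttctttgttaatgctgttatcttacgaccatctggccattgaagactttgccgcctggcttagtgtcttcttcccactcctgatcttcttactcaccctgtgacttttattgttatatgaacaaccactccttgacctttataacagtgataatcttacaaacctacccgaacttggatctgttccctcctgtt
Slc30a1, zinc exporter, before the RefSeq start, chr1:191906567-191906766, strand +: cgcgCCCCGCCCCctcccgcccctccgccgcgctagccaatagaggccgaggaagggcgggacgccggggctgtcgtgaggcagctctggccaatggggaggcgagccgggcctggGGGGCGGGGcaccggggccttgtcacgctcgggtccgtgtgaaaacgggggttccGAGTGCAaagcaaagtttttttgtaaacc
The Cftr stretch holds 1 CDX motif, which starts at base 18, and has a GC content of 35.5%. That of Slc3a2 holds 1 metal response motif at base 62. The runs were cleared of untranslated bases only, so they can hold coding bases of the gene or of a neighbour. The Slc3a2 stretch opens with atg, and that of Abcg5, in the start region shared with Abcg8, ends with its reverse complement cat. No motif was found in the stretches of Slc2a2, Slc39a4, Abcg5 and Abcb1a. The Slc30a1 stretch is shown because a peak covered this start under another gene's name, and it holds 2 GC box motifs and 1 metal response motif, with a GC content of 70%. Over the whole promoter table of RefSeq (250 bases before to 50 after each start), the metal response motif is common and occurs in 25.7% of promoters. Of the 44 promoters matched there, which belong to 35 of the 42 genes, 16 (36.4%) held it. They were 5 of 10 promoters of ion, 2 of 4 of sugar, 3 of 4 of metal, 3 of 15 of peptide and amino acid, 2 of 7 of lipid and sterol and 1 of 4 of vitamin, monocarboxylate and drug transporters.

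Transporter genes carried strong peaks in WT crypts. The median strength of their 197 peaks was 6.92, against 6.43 over all peaks and 6.53 over all peaks with a gene name. This level was not particular to transporters, as the peaks of crypt epithelium markers had a median of 6.92 (43 peaks) and those of villus enterocyte markers 6.98 (10 peaks). Immune and stromal markers had 6.33 (23 peaks). Of the transporter peaks 81.2% lay above the median of all peaks, and 54 (27.4%) lay among the strongest 10% of all peaks, with strength of at least 7.38. Those 54 peaks belonged to 29 genes. Gene starts are the strongest peaks in general, and the 38 transporter peaks within 1 kb of a start had a median of 7.50 against 7.33 for the start peaks of all genes. Away from starts the medians were 6.74 for transporters (159 peaks) and 6.45 for other named peaks. By position, 105 transporter peaks lay in introns (median 6.69), 36 over coding exons (6.97), 9 downstream of the gene (6.76), 7 upstream (6.91) and 2 over untranslated exons (6.71).

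**Figure D1:**
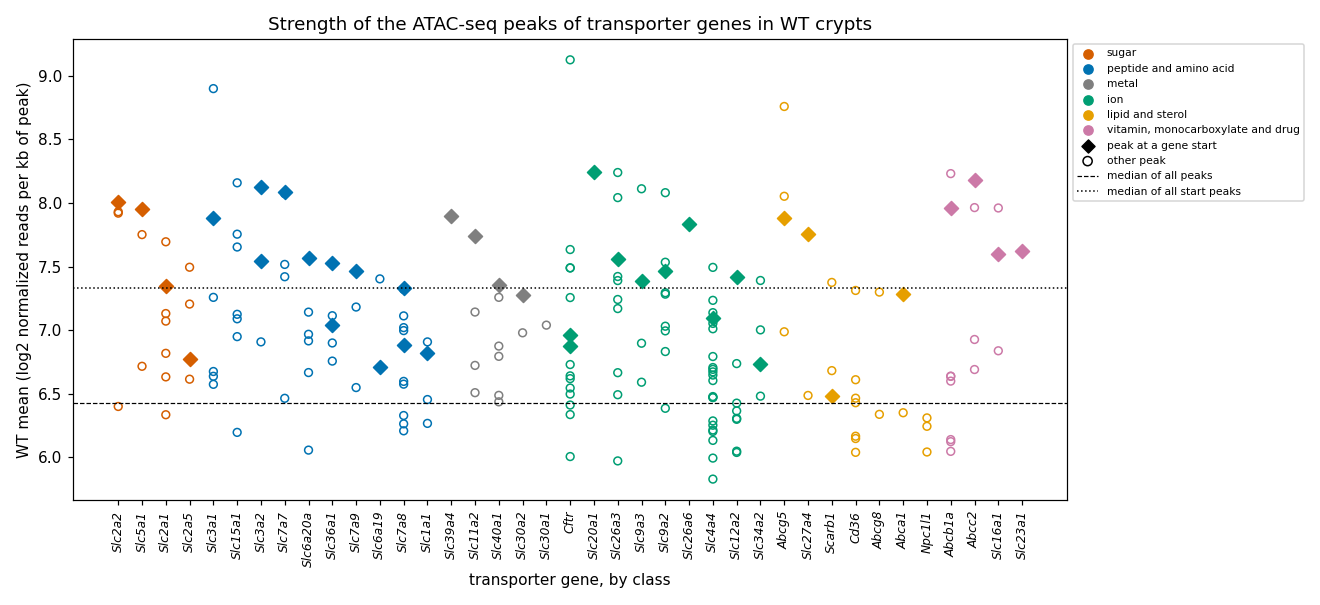
Strength of each of the 197 transporter peaks in WT crypts (WT mean, log2 normalized reads per kb of peak) by gene and class. Diamonds are peaks at a gene start, open circles are other peaks, and the lines are the medians of all peaks (6.43) and of all start peaks (7.33); the strongest peak, at 9.12, is an intron peak of Cftr.

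The classes differed in both number and strength of peaks. Ion transporters had the most peaks, 74 over 10 genes, followed by peptide and amino acid transporters with 52 over 10 genes. There were 23 peaks for lipid and sterol transporters (7 genes), 18 for sugar transporters (4 genes), 16 for the carriers of vitamins, monocarboxylates and drugs (5 genes) and 14 for metal transporters (6 genes). The order of strength was another one. Sugar transporters were at the top with a median strength of 7.17, and their medians in the single WT libraries were 7.12, 6.94 and 7.52. Peptide and amino acid transporters (7.01) and metal transporters (7.01) came next, then the vitamin, monocarboxylate and drug class (6.88) and ion transporters (6.76), and lipid and sterol transporters were at the bottom with 6.49 (6.57, 6.58 and 6.67 in the single WT libraries). The WT medians of a class spread between libraries by an SD of 0.05 to 0.34. As the classes share these libraries, this SD is not the spread of a difference between classes. Within single WT libraries, no pair of neighbours in this order kept the same order in every library. Ion transporters, for example, had 6.76, 6.56 and 7.20 in WT1 to WT3 and lay below lipid and sterol transporters in WT2 only. Only the highest peak of each gene gives a different order, with medians of 8.08 for ion, 8.07 for vitamin, monocarboxylate and drug, 7.82 for sugar, 7.55 for peptide and amino acid, 7.36 for metal and 7.31 for lipid and sterol transporters. Ion transporter genes also had the most peaks from which to take a highest, 8.2 per gene with peaks, against 2.8 to 5.2 in the other classes. The strongest 10% of all peaks held 43.8% of the vitamin, monocarboxylate and drug, 38.9% of the sugar and 28.8% of the peptide and amino acid transporter peaks. For ion transporters the share was 25.7%, for lipid and sterol 17.4% and for metal transporters 14.3%. Of the 74 ion transporter peaks, 64 lay away from starts.

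The number of peaks went with the length of the gene (Spearman's rho = 0.72 across 42 genes, which differ in annotation and are no replicates). Slc4a4, the basolateral sodium bicarbonate cotransporter, spans 353 kb on chromosome 5 and carried 22 peaks, the most of any transporter. Cftr followed with 15 peaks over 152 kb, Slc7a8 with 11 over 59.7 kb and Slc26a3 with 10 over 83.0 kb. Per 10 kb of gene with its flanks of 5 kb, Slc40a1 had the highest density with 2.11 peaks, ahead of Slc2a1 (1.78) and Slc7a8 (1.58), and Slc26a6 (0.14) and Abca1 (0.14) had the lowest above 0. By class the median density was 1.12 for peptide and amino acid, 1.03 for sugar, 0.80 for ion, 0.76 for metal, 0.60 for lipid and sterol and 0.58 for the vitamin, monocarboxylate and drug class. No peak carried the name of Slc46a1 (apical folate carrier), Slc39a5 (basolateral zinc importer) or Trpv6 (apical calcium channel).

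Among sugar transporters, Slc2a2, the basolateral glucose and fructose carrier, had 3 strong peaks and 1 weak one over 33.5 kb. Its strongest peak (chr3:28695001-28696950) ended 953 bp before the gene start and had a strength of 7.85, 8.03 and 8.14 in WT1 to WT3. Slc5a1, the sodium-coupled glucose carrier, had its strongest peak at the start (chr5:33103651-33106500) with 7.78, 7.91 and 8.17. Slc2a1, the facilitative glucose carrier that proliferating cells use widely, had 7 peaks, and the strongest lay 2.86 kb upstream of the gene start with 7.92, 6.96 and 8.20. Its own start peak was lower, at 7.35 ± 0.36 (SD, n = 3). Slc2a5, the apical fructose carrier, had the weakest sugar transporter start peak (6.78 ± 0.17), and an intron peak 13.2 kb inside the gene was stronger (7.49 ± 0.20). WT2 was the lowest WT library at the strongest peak of Slc2a1 and lay between WT1 and WT3 at those of Slc2a2 and Slc5a1.

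Among peptide and amino acid transporters, the strongest peak was at Slc3a1, the heavy subunit of the apical cystine exchanger. It lay over a coding exon 23.9 kb inside the gene (chr17:85051351-85053300) with 8.77, 8.72 and 9.21 in WT1 to WT3, at percentile 99.7 of all peaks. The start peak of Slc3a1 had 7.88 ± 0.14 (SD, n = 3), and its light subunit partner Slc7a9 had a start peak of 7.46 ± 0.10. Slc3a2, the heavy subunit of the basolateral exchangers, had its strongest peak at the start (8.04, 8.13 and 8.21), and of its light subunits Slc7a7 had 8.08 ± 0.17 and Slc7a8 had 2 start peaks of 6.88 ± 0.17 and 7.33 ± 0.23. The Slc7a7 peak lies at an inner annotated start, 7.38 kb into the gene. Slc15a1, the peptide carrier, had 7 peaks and none within 1 kb of its start, the nearest being 2402 bp away. Its strongest peak, over a coding exon 33.8 kb inside the gene, had 8.03, 8.04 and 8.40. Lower than these highest values were the start peaks of Slc6a20a (7.57), Slc36a1 (7.53), Slc1a1 (6.82) and Slc6a19 (6.71), which carry imino acids, small amino acids, acidic amino acids and neutral amino acids. That of Slc36a1 lies at an inner annotated start 9.5 kb into the gene, and the peak at its outermost start had 7.04.

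Among metal transporters, Slc39a4, the apical zinc importer, had 1 peak only, which covered its start (chr15:76615351-76618800) with 7.60, 7.93 and 8.15 in WT1 to WT3. Slc11a2, the apical iron importer, had 4 peaks with 7.52, 7.86 and 7.85 at the start peak. The iron exporter ferroportin, Slc40a1, had 6 peaks, and its start peak ranged widely within WT, with 7.58, 6.60 and 7.88. Slc30a2, a zinc carrier of secretory vesicles, had a start peak of 7.28 ± 0.10 (SD, n = 3). Slc30a1, the zinc exporter, had a single peak downstream of the gene under its own name (7.04 ± 0.38). A stronger peak covered the Slc30a1 start (chr1:191905651-191908050) with 8.02, 7.52 and 8.22 in WT but carries the name 1700034H15Rik in the table. Likewise the start of Slc39a5 lay under a peak named Ankrd52, with a strength of 7.67.

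Among ion transporters, Cftr, the apical chloride channel, had the strongest peak of all 197. It lay in intron 11 of the 27-exon transcript, 77.6 kb inside the gene (chr6:18247501-18249000), with 9.24, 8.37 and 9.77 in WT1 to WT3 from 269 to 1312 reads per library, at percentile 99.9 of all peaks. The Cftr start peak was weak by comparison, with 7.03, 5.98 and 7.61. The difference between these 2 peaks within each WT library was larger than the spread of either peak. The central 300 bases of 3 of the 15 Cftr peaks, this one included, held a CDX motif. Slc12a2, the basolateral chloride loader, had the opposite layout, with 7.42 ± 0.51 (SD, n = 3) at the start and between 6.04 and 6.74 at its 7 other peaks. Slc26a3, the chloride and bicarbonate exchanger, had its strongest peak in an intron (8.23, 7.74 and 8.75) and 7.56 ± 0.19 at an inner annotated start 47.9 kb into the gene. Slc20a1, a sodium phosphate cotransporter, had its sole peak at the start with 8.25, 8.02 and 8.46. Of the sodium and proton exchangers, Slc9a3 had 7.39 at the start and 8.11 in an intron, and Slc9a2 had 7.46 at the start and 8.08 in an intron. The anion exchanger Slc26a6 had 1 peak (7.83), Slc34a2, an apical phosphate carrier, had 6.74 at an inner start 11.1 kb into the gene, and Slc4a4 had 7.09 at the start.

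**Figure D2:**
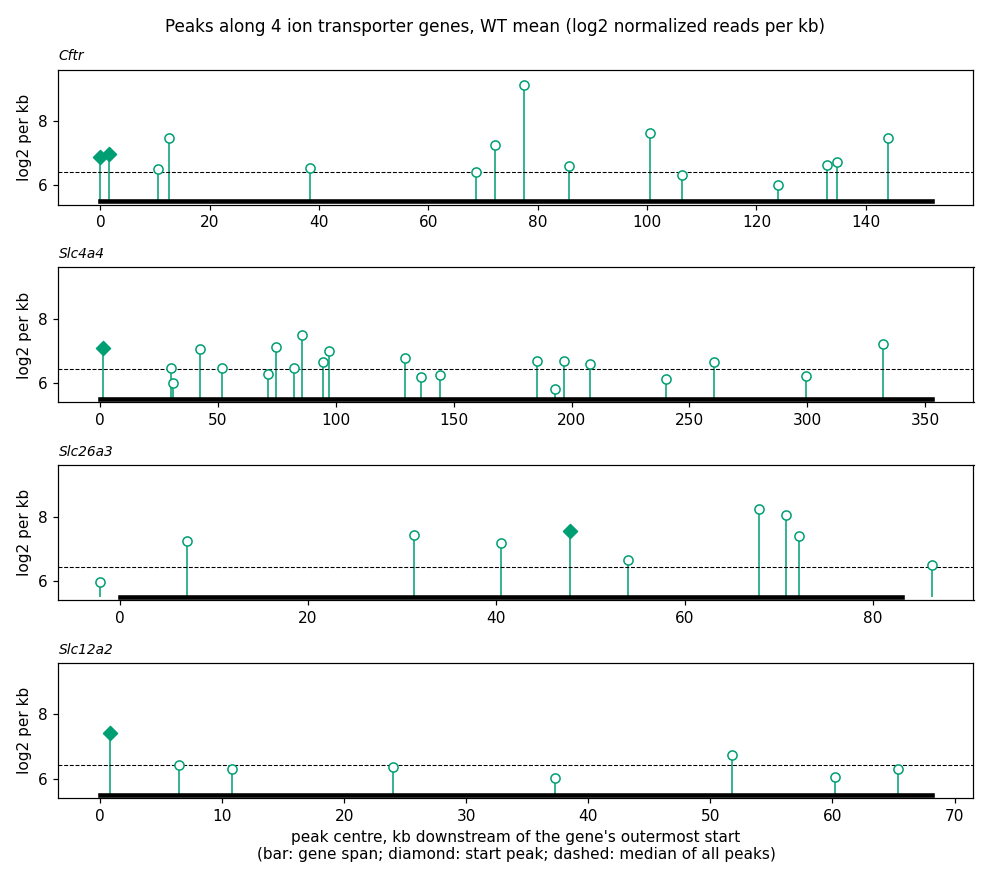
Peaks along Cftr, Slc4a4, Slc26a3 and Slc12a2, with the peak centre in kb from the gene's outermost start on the horizontal axis and WT mean strength (log2 normalized reads per kb) on the vertical axis; diamonds are start peaks. The intron peak of Cftr at 77.6 kb (9.12) stands above its start peaks (6.87 and 6.96), whereas in Slc12a2 the start peak (7.42) is the highest.

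Among lipid and sterol transporters, strong peaks were found at Abcg5, which forms the apical sterol exporter together with Abcg8. A peak over a coding exon of Abcg5 10.1 kb inside the gene (chr17:84671851-84673950) had 8.60, 8.64 and 9.04 in WT1 to WT3, and the start region that Abcg5 shares with Abcg8 had 7.60, 7.85 and 8.18 under the name Abcg5. Slc27a4, a fatty acid transport protein, had a start peak of 7.76 ± 0.12 (SD, n = 3), and Abca1, the basolateral cholesterol exporter, had 7.29 ± 0.34. Scarb1, a lipoprotein receptor, had 6.48 ± 0.12 at its start, and neither Cd36, a fatty acid receptor, nor Npc1l1, the apical cholesterol importer, had a peak within 1 kb of a start. The strongest Npc1l1 peak, over a coding exon, had 6.31 and lay below the median of all peaks, at percentile 35.6.

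The remaining class held strong start peaks. Abcc2, the apical organic anion exporter, had 7.60, 8.47 and 8.47 in WT1 to WT3 at its start (chr19:43781701-43782600). P-glycoprotein, encoded by Abcb1a, had 7.96 ± 0.27 (SD, n = 3) at the start and 8.23 ± 0.41 in intron 3. Slc16a1, the monocarboxylate carrier, had 7.60 ± 0.33 at the start, and Slc23a1, the vitamin C carrier, had its only peak at the start with 7.62 ± 0.19. Own-name start peaks were present at 34 of the 42 genes, and 37 had a start peak under any name. No peak lay within 1 kb of a start of Cd36, Npc1l1, Slc15a1, Slc46a1 or Trpv6, where the nearest peak was between 2402 bp (Slc15a1) and 28180 bp (Trpv6) away. In 19 of 39 genes the highest peak was a start peak.

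Motif content was counted in the central 300 bases of each peak, as a description of letters and not of binding. GATA motifs were found in 23 (11.7%) of the transporter peaks and in 5.97% of all peaks, and away from starts in 13.2% of transporter peaks and 7.01% of other named peaks. By class they were in 5 of 23 lipid and sterol, 11 of 74 ion, 4 of 52 peptide and amino acid, 2 of 14 metal and 1 of 16 vitamin, monocarboxylate and drug transporter peaks, and in none of the 18 sugar transporter peaks. CDX motifs were in 12 transporter peaks (6.09%, against 4.46% of all peaks), 7 of them at ion transporters. HNF4 motifs were in 3 (1.52%, against 1.31%), AP-1 motifs in 26 (13.2%, against 11.6%) and GC boxes in 4 (2.03%, against 2.11%). The metal response motif was in 34 (17.3%, against 19.3%), of which 1 was a metal transporter peak. Part of these shares goes with strength. Among the strongest 10% of all peaks, the 6631 away from starts held GATA motifs in 9.27%, CDX motifs in 6.36% and AP-1 motifs in 18.1%. The 31 transporter peaks among them held GATA motifs in 5 (16.1%), CDX motifs in 4 (12.9%) and AP-1 motifs in 4 (12.9%). Transporter start peaks were poorer in CpG than start peaks in general, with a median of 8 CpG and a GC content of 55.3%, against 22 and 63%.

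Accessibility at transporter genes in KO crypts was close to that in WT, within the wide error of these libraries. None of the 197 peaks was called in KO against WT at an adjusted p below 0.05 (limma, adjusted over all peaks), where 0% of all peaks were called. The study, with edgeR, did report sites of changed accessibility, mostly gains in KO. The absence of limma calls thus does not show that no peak changed. By unadjusted limma p below 0.05 there was 1 transporter peak (0.508%), against 2.28% of all peaks. With voom, which models the recovered whole reads, none was called either (0% of all peaks), and 1 (0.508%) had an unadjusted p below 0.05, against 2.39% of all peaks. The shares were the other way round without KO2, with 9 transporter peaks (4.57%) against 3.87% of all peaks, and with the replicate number as a block, with 18 (9.14%) against 6.87%. No source ties these numbers to shared mice, and with the block no transporter peak was called, against 0.22% of all peaks. In the block fit limma took nearly the same spread for all peaks of a given level (prior degrees of freedom of 6880, against 10.6 without the block), and with each peak's own spread it gave 11 peaks (5.58%) against 5.19%. The KO minus WT differences of the 197 peaks ran from -0.62 to 0.61 on the log2 scale with SEs of 0.25 to 0.46, and their median was 0.03, against -0.02 over all peaks. For 196 of the peaks the 95% interval of the difference held 0, and for 158 it stayed within a 2-fold change in either direction, that is within 1 on the log2 scale. For 177 peaks the difference was smaller than the larger of the SDs of the 2 groups. The KO and WT groups were apart, with no overlap between their libraries, at 7 peaks (3.55%), against 6.8% of all peaks. KO was the higher group at 2 of them, where the background was 2.7%, and the lower at 5, where it was 4.1%. None of these 3 shares was above that of all peaks.

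**Figure D3:**
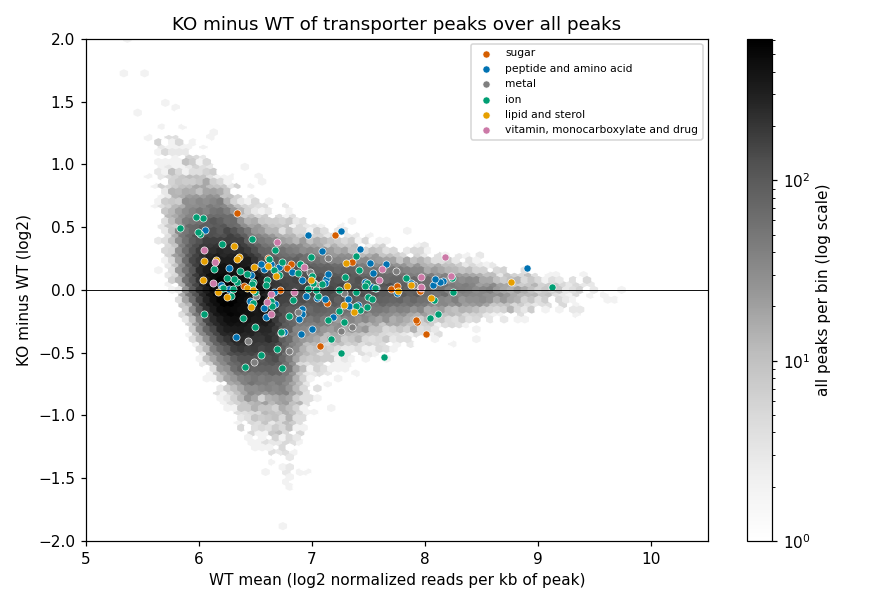
KO minus WT (log2) against WT mean strength (log2 normalized reads per kb of peak) for the 197 transporter peaks, coloured by class, over all 123510 peaks in grey (darker bins hold more peaks, log scale). The transporter peaks lie between -0.62 and 0.61, with 115 above 0 and 82 below. Of all peaks 57876 lie above 0 and 65634 below.

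Start peaks showed small differences. For each of 34 genes the start peak nearest an annotated start was taken, and the stronger one on a tie. KO minus WT of these peaks ran from -0.35 (Slc2a2) to 0.26 (Abcc2), with 24 above 0 and 10 below. Of the 12082 start peaks of all genes, 6293 were above 0 and 5789 below. At the Slc2a2 start peak the KO libraries had 7.54, 7.49 and 7.93, against 7.85, 8.03 and 8.14 in WT. Of the KO libraries only KO3 reached into the WT range, and the difference of -0.35 ± 0.31 (SE) had an adjusted p of 1.00 (limma). At the Slc5a1 start peak KO had 7.87, 7.84 and 8.13, between and beside the WT values, with a difference of -0.01 ± 0.33. For the intron 11 peak of Cftr KO had 9.31, 8.32 and 9.81, which span the same range as WT, and the difference was 0.02 ± 0.46. The strongest peaks of Slc3a1 (0.17 ± 0.37), Abcg5 (0.07 ± 0.37) and Slc15a1 (0.07 ± 0.35) also had differences well inside their errors.

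The 5 peaks lower in KO with the smallest unadjusted p were an intron peak of Slc40a1, 3 intron peaks of Cftr and an intron peak of Slc12a2. At the Slc40a1 peak, in intron 5 (chr1:45914401-45915150), WT had 6.39, 6.25 and 6.82 and KO had 5.79, 6.22 and 5.73. The groups did not overlap, but KO2 lay only just below WT2, and the counts were small, from 10 to 85 reads. The difference was -0.57 ± 0.27 (SE), with an adjusted p of 1.00 (limma). The Cftr peaks lay in introns 3, 11 and 15 with differences of -0.52 ± 0.28, -0.61 ± 0.31 and -0.54 ± 0.29, and the groups overlapped at that in intron 15 only. That in intron 11 is another, weaker peak than the strongest one, 68.6 kb inside the gene and with 6 to 48 reads per library. The Slc12a2 peak, in intron 19, differed by -0.62 ± 0.34 from 5 to 27 reads. Of the 15 Cftr peaks 7 had positive and 8 had negative differences.

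The 5 peaks higher in KO with the smallest p lay at Slc2a1, Slc12a2, Slc26a3, Cftr and Slc6a20a. In intron 2 of Slc2a1 (chr4:119131051-119131800) WT had 6.14, 5.94 and 6.92 and KO had 7.12, 6.66 and 7.06. WT3 lay above KO2, so that the groups overlapped, and the difference was 0.61 ± 0.30 (SE) with an adjusted p of 1.00 (limma). Another Slc2a1 intron peak, 12.7 kb inside the gene, differed by -0.45, and there the groups did not overlap. The Slc12a2 peak in intron 15 differed by 0.58 ± 0.28 from 11 to 29 reads, the peak upstream of Slc26a3 by 0.58 ± 0.34, the Cftr peak in intron 21 by 0.44 ± 0.27, and the coding exon peak of Slc6a20a by 0.44 ± 0.27. Slc12a2 and Cftr thus had peaks among both the 5 lower and the 5 higher ones. All 10 peaks had adjusted p values of 1.00.

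When all peaks of a gene were summed, none of the 39 transporter genes was called (limma, adjusted over 18004 gene names, of which 0% were called). None had an unadjusted p below 0.05, by limma or by voom, against 0.761% of all gene names by limma and 0.828% by voom, and in none were the groups apart, against 3.34%. The differences ran from -0.32 ± 0.39 (SE) for Slc40a1 to 0.23 ± 0.25 for Abcg8, with a median of 0.05, against 0.02 over all gene names. There were 29 genes above 0 and 10 below, but the genes share their libraries and are no replicates. The sums of Slc40a1 were 10.18, 9.23 and 10.56 (log2 of summed normalized reads) in WT and 9.62, 9.12 and 10.26 in KO. All 6 peaks of Slc40a1 had negative differences, but they share their libraries, and the KO and WT sums overlapped. Slc2a2 came next with -0.26 ± 0.25, from 10.51, 10.61 and 10.82 in WT and 10.23, 10.32 and 10.60 in KO. By class, the median difference of the sums was 0.12 for the vitamin, monocarboxylate and drug class, 0.07 for peptide and amino acid, 0.04 for lipid and sterol, 0.04 for metal, 0.03 for sugar and 0.00 for ion transporters. The differences between these class medians were smaller than the SEs of single genes.

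**Figure D4:**
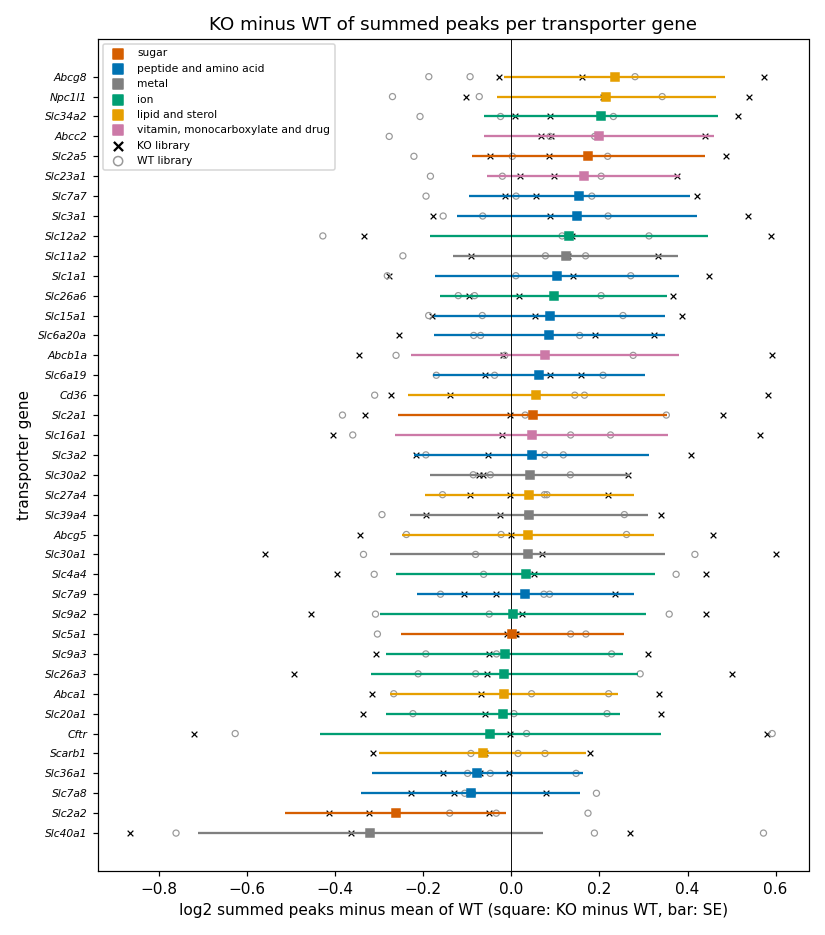
KO minus WT of the summed peaks of 39 transporter genes (log2; squares with SE bars, coloured by class), with the single WT libraries (circles) and KO libraries (crosses) relative to the WT mean of each gene. From Slc40a1 (-0.32) to Abcg8 (0.23), every SE bar but that of Slc2a2 crosses 0, and the WT and KO libraries of each gene overlap.

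Libraries of the same group differed more than the groups did. KO3, which has the fewest reads, was the highest KO library at 73.1% of transporter peaks (56.0% of all peaks), and WT3, which has the most, was the highest WT library at 72.6% (54.2% of all peaks). In 32 of 39 genes the summed peaks were highest in WT3 among WT and in KO3 among KO. The libraries WT2 and KO2 ranked differently by gene. The sum of Cftr in WT2 was 10.58, against 11.24 in WT1 and 11.80 in WT3, and in KO2 it was 10.49, against 11.20 and 11.79. Slc40a1, Slc12a2 and Slc2a1 were also lowest in WT2 and in KO2. Slc6a19, the neutral amino acid carrier, had 9.43 in WT2, against 9.06 and 9.19, and 9.38 in KO2, against 9.31 and 9.17. Slc23a1 was highest in WT2 and KO2 too. Npc1l1, Abcc2, Slc11a2, Slc30a2 and Slc7a9 were highest in WT2 among WT but not in KO2 among KO. By class, WT2 was the lowest WT library at 62.2% of ion transporter peaks but at 32.7% of peptide and amino acid and 21.7% of lipid and sterol transporter peaks. Over all peaks it was the lowest at 63.4%. The corresponding shares for KO2 were 74.3%, 61.5% and 56.5%, with 52.6% over all peaks.

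**Figure D5:**
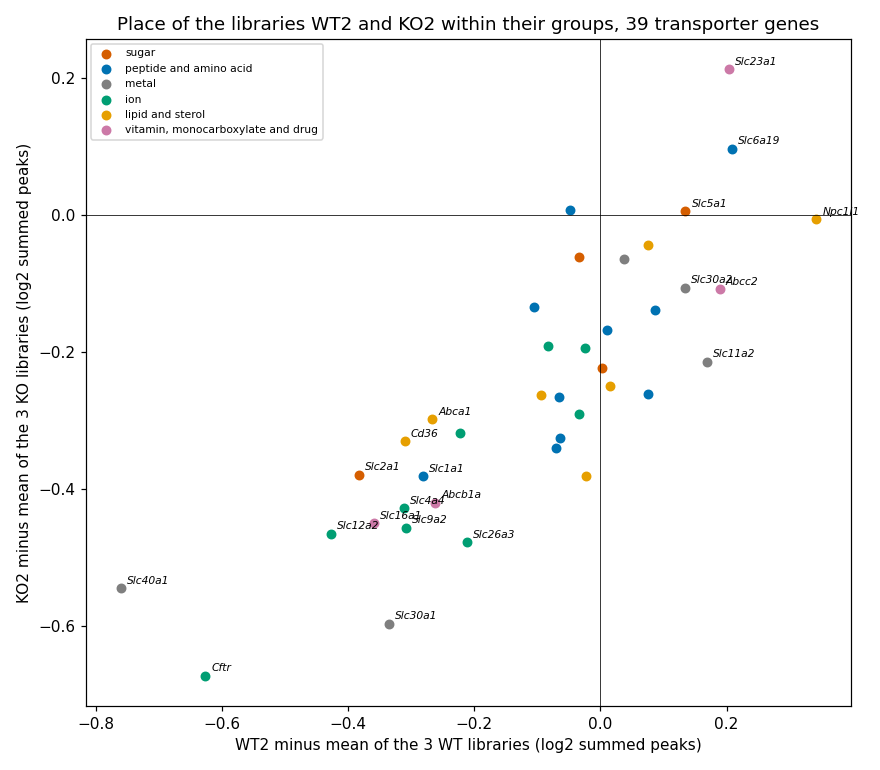
Summed peaks of 39 transporter genes in WT2 relative to the mean of the WT libraries (horizontal axis, log2) and in KO2 relative to the mean of the KO libraries (vertical axis, log2), coloured by class. Cftr, Slc40a1 and Slc12a2 sit at the lower left, and Slc23a1 and Slc6a19 sit at the upper right; the points share libraries and depth.

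Marker genes moved with this placing. The summed normalized reads over the 11 crypt marker genes with peaks were 8558, 8020 and 10935 in WT1 to WT3 and 9700, 7553 and 12302 in KO1 to KO3, lowest in WT2 and KO2. Over the 5 villus enterocyte marker genes with peaks (of 8 listed, with Alpi, Apoa1 and Apoa4 at no named peak) they were 1873, 2606 and 2204 in WT and 2162, 2389 and 2262 in KO, highest in WT2 and KO2. Immune and stromal markers (7 of 11 genes) ranged from 1309 to 1507 in WT and from 1308 to 1484 in KO. The part of these markers in the values of single transporters was not tested. Krt20 is in both epithelial lists, and its sum was 10.25 in WT2 against 9.18 and 9.64. For each of the lists the ranges of WT and KO overlapped.

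Other genes of the same physiology, taken from 2 lists, also gave no calls. Of 24 transcription factors known to regulate transport or metabolism in the gut, 23 had peaks, 114 in all with a median strength of 7.17. Neither any peak nor any gene sum was called in KO against WT (limma). At an unadjusted limma p below 0.05 there were 2 peaks (1.75%, against 2.28% of all peaks) and no gene sum (against 0.761% of all gene names). Strong peaks were found at the Klf5 start (8.95), the Nfe2l2 start (8.84) and Mlxipl (8.70), and Hnf4g, a factor that drives enterocyte genes, had 15 peaks with 8.29 at its start. Only Klf4 had no named peak. Of 28 partners, such as brush border enzymes and iron, calcium and lipid handling proteins, 23 had peaks, 89 in all with a median strength of 6.74. None was called, and 1 peak (1.12%, against 2.28% of all peaks) and no gene sum had an unadjusted limma p below 0.05. Mttp, which loads lipoproteins with lipid, had a start peak of 8.98, Atp2b1, the basolateral calcium pump, had 8.83, and the transferrin receptor Tfrc had 8.07. Mt1, a zinc-binding metallothionein, had the largest gene sum difference of this list, 0.65 ± 0.29 (SE) with an adjusted p of 1.00 (limma), from 9.39, 8.81 and 9.77 in WT and 10.09, 9.77 and 10.05 in KO. The Mt1 groups were apart, though KO2 and WT3 were both 9.77 at this rounding, and the unadjusted limma p was 0.050. The sum of Lct, the brush border lactase, differed by -0.33 ± 0.24.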

How the data were processed

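Reads were trimmed with Trim Galore 0.4.1 and mapped to GRCm38 with Bowtie2 2.2.5, per the labels. The authors removed duplicates and reads of mapping quality below 20, called 1 set of MACS peaks in SeqMonk (which libraries were pooled is not stated) and tested peaks with edgeR. The values the authors deposited are log2 read counts per peak, scaled to the largest library. A smaller deposited table holds the authors' own comparison and was not used. No column of per-library values lacked a sample. On the linear scale 100% of values were whole multiples (tolerance 0.1 reads) of 1 read, which gave the depth.

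KO and WT were compared in R 4.3.3 with limma 3.58.1 (lmFit, eBayes with trend, two-sided) over all 123510 peaks without covariates, and over 18004 gene sums, with Benjamini-Hochberg adjustment. This test was used on the log2 values as deposited, and the recovered reads were used with voom as an alternative. The fit was tested on simulated data. Replicates carry numbers 1 to 3, and no source says that they are separate mice, so p-values measure the spread between these libraries.

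A start peak overlapped or lay within 1 kb of a protein-coding start in GENCODE vM21. Peaks named in the text are the start peak or else the highest peak of each gene, the 2 strongest of each class, and the 5 with the smallest p in each direction. Other peaks and genes named were chosen after their values were seen. Members, classes and lists were chosen with earlier results of these data known. Alternatives were median centring, quantile normalization, voom on whole reads, a pseudocount of 5, minimum means of 20 and 50, each peak's own spread in place of limma's pooled one (this and the minimum of 50 were chosen after seeing the data), the replicate number as a block, each library left out, the highest peak of each gene, and assignment of peaks within 5 kb by annotation. Sequences and promoters are from RefSeq (GRCm38).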

Additional observations from a re-analysis of the deposited data

How the results depend on the processing

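No transporter peak or gene sum was called under any alternative run. The median difference of the peaks was 0.03, from -0.11 without KO3 (all peaks -0.11) to 0.14 without KO2 (all peaks 0.08). Peaks at an unadjusted limma p below 0.05 numbered 1 of 197 in the main fit (0.508%, against 2.28% of all peaks), 3 after median centring (1.52% against 2.83%), 5 after quantile normalization (2.54% against 3.12%), 5 with each peak's own spread (2.54% against 3.18%) and 0 with a minimum mean of 50 (1.35% of all peaks). Leaving out 1 library gave 0 (without KO1, 2.14% of all peaks) to 9 (without KO2, 4.57% against 3.87%), with 4 without WT2 (2.03% against 4.56%) and 5 without KO3 (2.54% against 3.15%). With the replicate number as a block there were 18 (9.14% against 6.87%) and no call, and 11 (5.58% against 5.19%) with the block and each peak's own spread. The share of transporter peaks was thus above that of all peaks with the block and without KO2, and below it in the other fits run over these peaks. Same-numbered libraries correlated by 0.04, 0.42 and 0.41 after subtraction of the group means. The main fit left the libraries unpaired because no source ties the numbers to shared mice. Whether libraries of the same number belong together was not tested. Peaks with the groups apart numbered 7 (6.8% of all peaks), 16 after quantile normalization (8.12% against 8.11%) and 3 with a minimum mean of 50 (5.0%). With 1 library fewer, groups come apart more easily, and there were 10 (without KO1) to 34 (without KO3, 17.3% against 16.2%), with 21, 19 and 23 without WT1, WT2 and WT3 and 26 without KO2, against 11.2% to 20.7% of all peaks. Taking the highest peak of each gene gave medians of 7.82 for sugar, 7.55 for peptide and amino acid, 7.36 for metal, 8.08 for ion, 7.31 for lipid and sterol and 8.07 for the vitamin, monocarboxylate and drug class. The lipid and sterol median was 6.49, 6.55 with peaks assigned by annotation and 6.53 to 6.61 with 1 WT library left out. The cause of these shifts was not tested beyond the fewer libraries or peaks that the alternatives use. Over 696 alternative values for 54 named peaks none passed the threshold (smallest adjusted p 0.366, limma with the block), the 10 with the smallest p kept their direction, and the others moved by less than the SD of their libraries. A minimum mean of 20 removed no peak. Depth limits the weak peaks, which held as few as 5 reads in a library.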
